A study of Homo sapiens with 9 samples.

Results

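The 10 Notch genes described here are the receptors NOTCH1, NOTCH2 and NOTCH3, the ligands JAG1, JAG2 and DLL1, and the target genes HES1, HES4, HEY1 and NRARP. They were taken by symbol from the 26364 genes of the count files, and all 10 were found in each of the 9 files. RNA was sequenced from the human line MDA-MB-231, an epithelial breast adenocarcinoma that is triple-negative, after lentiviral delivery of pLVX carrying MEL-18 T334A, pLVX carrying MEL-18 WT or the pLVX vector alone, with 3 libraries in each of these 3 groups. MEL-18 is the protein of PCGF2, a Polycomb RING finger subunit of the repressive complex PRC1, and in T334A a threonine that can be phosphorylated is replaced by alanine. Every group was grown for 48 h in DMEM with 10% serum and kept its own PCGF2 gene. The labels do not say whether each line was a pool or a clone, or whether replicates came from separate transductions, so a difference between constructs and a difference between transduced lines cannot be told apart, and the p-values cover only the spread among the cultures sequenced.

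Notch receptors span the membrane and are activated by Jagged and Delta-like ligands on neighbouring cells. Ligand pulling exposes the receptor to cleavage by ADAM proteases and then by the presenilin-containing gamma-secretase, and the freed intracellular domain enters the nucleus, where it joins the DNA-binding protein RBPJ and a Mastermind coactivator. HES and HEY genes, which encode basic helix-loop-helix repressors, and NRARP, which encodes a negative feedback regulator of the receptor's intracellular domain, are widely used readouts of this activity. In the breast the pathway is known for its part in luminal fate choices and in triple-negative cancer.

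The promoters of HES1 and HES4 are shown because these targets share a pair of motifs at the same spacing, while HES4 RNA rose in both MEL-18 groups and HES1 RNA was not called higher against the vector. The lines give the 120 bases before each start from RefSeq GRCh38.p14, HES1 at chr3:194136028-194136147 on the plus strand and HES4 at chr1:1000098-1000217 on the minus strand, 5′ to 3′, with capitals for GTGGGAA and for TTCACAC, the reverse complement of GTGTGAA.
HES1: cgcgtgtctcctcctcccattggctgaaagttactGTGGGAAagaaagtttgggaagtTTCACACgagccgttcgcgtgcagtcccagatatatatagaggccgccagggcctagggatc
HES4: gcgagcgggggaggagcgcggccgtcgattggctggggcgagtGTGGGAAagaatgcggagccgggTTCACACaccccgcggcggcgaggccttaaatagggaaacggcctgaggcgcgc
GTGGGAA, the core RBPJ motif, began at -85 from the start in HES1 and at -77 in HES4, and 16 bases separated it from TTCACAC in both. The 250 bases before the start were searched on both strands, as GTGGGAA and TTCCCAC, which do not overlap each other in these 2 promoters. Of 35116 promoters in the table, 1906 (5.43%) held GTGGGAA on either strand, against 2 of the 8 listed Notch genes with a promoter there. DLL1 and HEY1 had no promoter among these. Of the other family genes with a promoter there, HES5, HEY2 and HEYL also held the motif on either strand and the rest did not. The search for TTCACAC and for the spacing was chosen after the sequences were seen, and 2 promoters (0.0057%) held both motifs at that spacing, those of HES1 and HES4. In the promoters of the other 6 listed genes these letters are not in the window. The 8 promoters were rich in G and C, from 59.2% in HES1 to 81.6% in JAG2, beside a median of 58.0% over all promoters.

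The groups could be told apart by PCGF2 itself. Its counts ran from 45761 to 51279 in MEL-18 T334A libraries and from 42513 to 47406 in MEL-18 WT libraries, against 699 to 799 with the empty vector, 62.4-fold and 56.5-fold above the vector after scaling. BMI1, the PCGF2 paralog, was not called in any comparison. Library totals ran from 31643722 to 37005302 counts, and 14738 genes were tested together with edgeR's quasi-likelihood F test, a gene being called where its p, adjusted by Benjamini-Hochberg over all of them, was below 0.05. Levels are given as CPM, the share of a library's counts scaled to a common total, over TMM-scaled library sizes, in replicate order 1 to 3, and changes as log2 fold changes ± SE. The mesenchymal marker VIM averaged 1545 ± 31.4 CPM in MEL-18 T334A, 1481 ± 16.5 CPM in MEL-18 WT and 1447 ± 29.5 CPM with the vector (SD, n = 3 each), and the epithelial keratin KRT8 averaged 304 ± 6.65, 321 ± 3.31 and 305 ± 5.01 CPM. The epithelial adhesion gene EPCAM averaged 12.2 ± 0.36, 10.1 ± 0.47 and 7.47 ± 0.33 CPM in the same groups, higher than with the vector by 0.71 in MEL-18 T334A and by 0.43 in MEL-18 WT. The keratin KRT19 was higher by 0.42 and 0.29 and CD44 by 0.20 and 0.13, while the keratin KRT18 fell by 0.24 in MEL-18 T334A. Of these 6 markers of the line, 4 rose and 1 fell in MEL-18 T334A and 3 rose and 0 fell in MEL-18 WT against the vector, and between the MEL-18 forms 2 were higher in MEL-18 T334A and 2 in MEL-18 WT. Thus 83.3%, 50% and 66.7% of the 6 were called in either direction, beside 45.9%, 28.8% and 40.9% of all tested genes. The hormone receptors ESR1 and PGR and E-cadherin, CDH1, had at most 15 counts per group. ERBB2 RNA was present, at 69.9 ± 0.54, 68.6 ± 0.38 and 63.8 ± 1.59 CPM in the same groups. The summed level of 7 endothelial, immune and fibroblast markers was 13.4 to 16.7 CPM in MEL-18 T334A, 13.5 to 15.4 CPM in MEL-18 WT and 11.9 to 13.1 CPM with the vector, most of it COL1A1. CD3E and DCN had no count in MEL-18 T334A, and DCN had none with the vector. Of the 7 markers 5 were tested, all but CD3E and DCN. Against the vector 2 of the 5 rose and 2 fell in MEL-18 T334A, and 1 rose and 3 fell in MEL-18 WT. That was 80% in each comparison, beside 45.9% and 28.8% of all tested genes. The part of either marker list in the Notch results was not tested. MEL-18 T334A replicate 3 stood somewhat apart from its group, with chi-square values of 3.76 and 4.12 per degree of freedom against replicates 1 and 2, where the other 7 pairs within groups had 1.51 to 2.84.

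In MEL-18 T334A cells NOTCH1, NOTCH2, JAG2, HES4 and NRARP rose against the empty vector, NOTCH3 fell, and JAG1, HES1 and HEY1 were not called. Thus 5 of the 9 tested genes were called higher and 1 lower, where 23.4% of all tested genes were called higher, 22.5% lower and 45.9% in either direction. The median log2 fold change of the 9 was 0.27, beside -0.0022 over all tested genes. In bulk RNA, fewer cells expressing a gene and less RNA per cell cannot be told apart. DLL1 had too few counts to be tested.

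In MEL-18 WT cells NOTCH1, NOTCH2, JAG2, HES4 and NRARP rose and NOTCH3 and HES1 fell against the vector, so 5 of 9 were higher and 2 lower, where 14.4% of all tested genes were called higher, 14.4% lower and 28.8% in either direction. The median over the 9 was 0.18. The vector libraries are shared by both comparisons. Set directly against MEL-18 WT, MEL-18 T334A had higher NOTCH1, JAG1, JAG2 and HES4 and no lower member, 4 and 0 of 9, where 21% of all tested genes were called higher, 20% lower and 40.9% in either direction. The median over the 9 was 0.12.

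**Figure D1:**
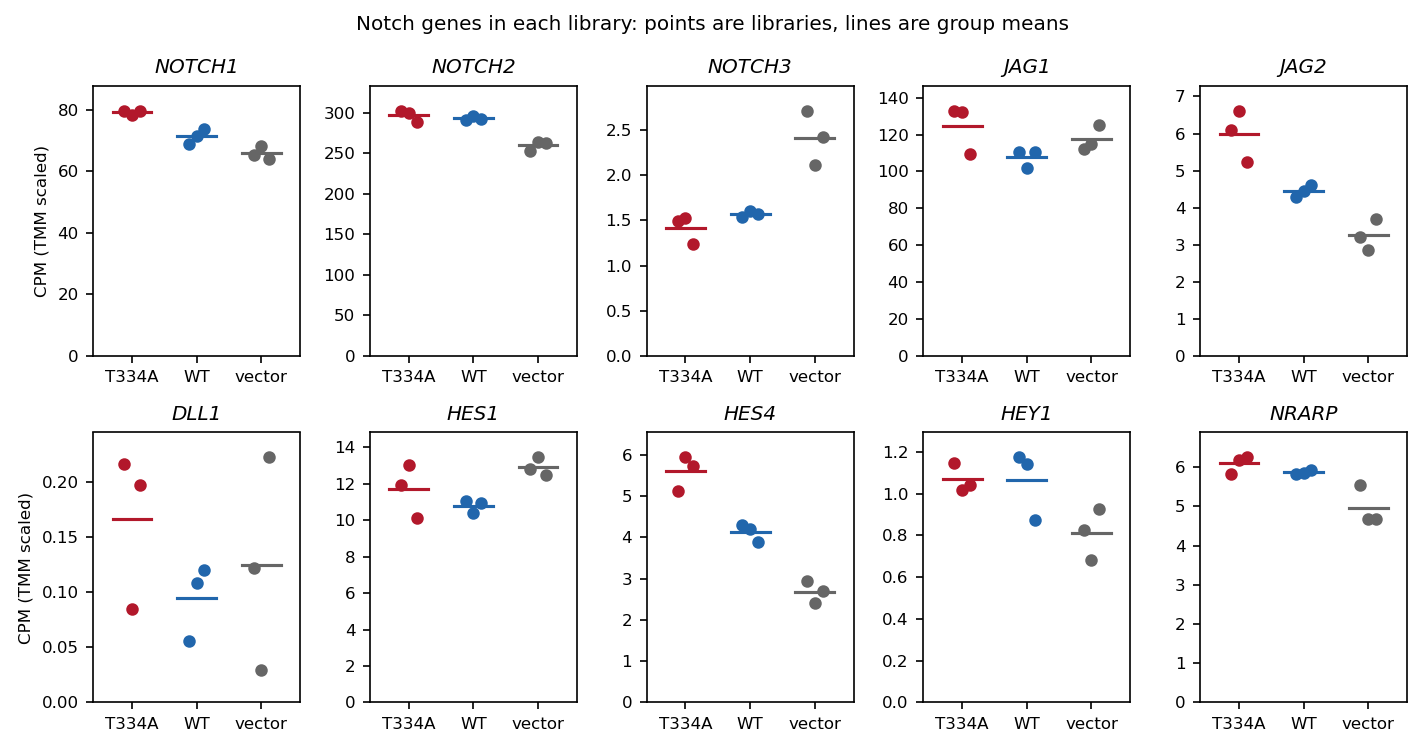
CPM of the 10 Notch genes (y axes, each from 0) in each library of MEL-18 T334A, MEL-18 WT and empty vector cells. Points are libraries and lines are means of 3; HES4 and JAG2 descend from MEL-18 T334A to the vector with no overlap between groups, and NOTCH3 is highest with the vector.

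NOTCH1, on chromosome 9, encodes a broadly expressed receptor. It stood at 79.7, 78.3 and 79.4 CPM in MEL-18 T334A, at 69.0, 71.4 and 73.8 CPM in MEL-18 WT and at 65.4, 68.0 and 63.8 CPM with the vector. No library of a group overlapped those of another, and MEL-18 T334A was highest. NOTCH1 was higher by 0.27 ± 0.03 in MEL-18 T334A (edgeR adjusted p = 4.04e-07) and by 0.12 ± 0.03 in MEL-18 WT (edgeR adjusted p = 0.0106) than with the vector. The direct difference between MEL-18 T334A and MEL-18 WT was 0.15 ± 0.03 (edgeR adjusted p = 8.28e-04). The 40 tested genes around NOTCH1 had a median of 0.12 in MEL-18 T334A against the vector, and with that shift taken out NOTCH1 had 0.14 (edgeR adjusted p = 0.00187). In MEL-18 WT against the vector these genes had a median of -0.09, and the NOTCH1 call was kept with that shift taken out. Between the MEL-18 forms NOTCH1 was no higher than the surrounding genes, which had a median of 0.22 with 38 of 40 above 0. With that shift taken out, the difference between the MEL-18 forms was -0.06 (edgeR adjusted p = 0.164). The call for MEL-18 WT against the vector was lost without MEL-18 WT replicate 3 (edgeR adjusted p = 0.0733) and without empty vector replicate 3 (edgeR adjusted p = 0.0589).

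NOTCH2, on chromosome 1, was the most abundant receptor. Its level was 303, 299 and 289 CPM in MEL-18 T334A, 291, 296 and 293 CPM in MEL-18 WT, and 253, 264 and 263 CPM with the vector. All 6 libraries carrying MEL-18 lay above all 3 vector libraries, and the MEL-18 forms overlapped. The change against the vector was 0.19 ± 0.03 in MEL-18 T334A (edgeR adjusted p = 3.56e-06) and 0.18 ± 0.03 in MEL-18 WT (edgeR adjusted p = 2.56e-05), beside neighbour medians of -0.03 and 0.02. The adjacent PHGDH, a serine synthesis gene, rose by 0.19 and 0.22 in the same comparisons (edgeR adjusted p = 4.31e-04 and 1.99e-04), while SEC22B on the other side was not called in either. Between the MEL-18 forms NOTCH2 differed by 0.02 ± 0.03 (edgeR adjusted p = 0.671). NOTCH2NL, a partial copy of NOTCH2 whose near-identical reads may be shared with it, had a log2 fold change of -0.01 ± 0.04 in MEL-18 T334A and fell by 0.19 ± 0.04 in MEL-18 WT against the vector, so that how reads were split between these genes is uncertain.

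NOTCH3, on chromosome 19, a receptor best known from vascular smooth muscle, was the receptor that fell. It had 1.49, 1.53 and 1.24 CPM in MEL-18 T334A, 1.54, 1.60 and 1.56 CPM in MEL-18 WT and 2.71, 2.11 and 2.42 CPM with the vector. These values rest on 44 to 54 counts per MEL-18 T334A library, 52 to 59 per MEL-18 WT library and 71 to 89 per vector library. Every MEL-18 library was below every vector library. NOTCH3 fell by 0.77 ± 0.15 in MEL-18 T334A (edgeR adjusted p = 1.52e-04) and by 0.62 ± 0.15 in MEL-18 WT (edgeR adjusted p = 0.00187), with neighbours near 0 (medians -0.04 and -0.05). The difference between the MEL-18 forms, -0.15 ± 0.16, was within its error (edgeR adjusted p = 0.508). NOTCH4, the remaining receptor, was at 0.833 ± 0.051 CPM in MEL-18 T334A, 0.979 ± 0.213 CPM in MEL-18 WT and 0.687 ± 0.140 CPM with the vector (SD, n = 3 each), and was not called in any comparison with all libraries. Without MEL-18 WT replicate 2 it was called higher in MEL-18 WT than with the vector (0.68, edgeR adjusted p = 0.0380).

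JAG1, on chromosome 20, was the main ligand. Its level was 133, 132 and 109 CPM in MEL-18 T334A, 111, 102 and 110.5 CPM in MEL-18 WT and 112, 115 and 125 CPM with the vector. MEL-18 T334A replicates 1 and 2 were the highest libraries and replicate 3 lay among those of MEL-18 WT. JAG1 was higher in MEL-18 T334A than in MEL-18 WT by 0.21 ± 0.05 (edgeR adjusted p = 0.00159), and by 0.30 without MEL-18 T334A replicate 3 (edgeR adjusted p = 6.47e-09). Its log2 fold change against the vector was 0.09 ± 0.05 in MEL-18 T334A (edgeR adjusted p = 0.167) and -0.12 ± 0.05 in MEL-18 WT (edgeR adjusted p = 0.0752). Without MEL-18 T334A replicate 3 the first of these was 0.18 and called (edgeR adjusted p = 8.92e-05), and without empty vector replicate 3 it was called at an edgeR adjusted p of 0.0360. It was also called with no filter on low counts (edgeR adjusted p = 0.0374). In MEL-18 WT the lower value was called without empty vector replicate 1 (edgeR adjusted p = 0.0467), with no filter (edgeR adjusted p = 0.00275) and with MEL-18 WT and vector libraries fitted alone (edgeR adjusted p = 0.00431). The neighbours of JAG1 had medians of -0.09 in MEL-18 T334A and 0.01 in MEL-18 WT, and with their shift taken out JAG1 was called higher in MEL-18 T334A against the vector (0.18, edgeR adjusted p = 0.00601).

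JAG2, on chromosome 14, the second Jagged ligand, rose stepwise. It had 6.08, 6.62 and 5.24 CPM in MEL-18 T334A, 4.28, 4.45 and 4.60 CPM in MEL-18 WT and 3.20, 2.85 and 3.70 CPM with the vector. The 3 groups did not overlap. The rise over the vector was 0.88 ± 0.11, or 1.84-fold, in MEL-18 T334A (edgeR adjusted p = 2.66e-07) and 0.45 ± 0.12, or 1.37-fold, in MEL-18 WT (edgeR adjusted p = 0.00387). MEL-18 T334A exceeded MEL-18 WT by 0.43 ± 0.10 (edgeR adjusted p = 0.00132). The 27 tested neighbours of JAG2, which lies near a chromosome end, had medians of 0.01, 0.07 and 0.01 in these comparisons. The adjacent NUDT14 rose by 0.39 in MEL-18 T334A (edgeR adjusted p = 9.9e-05) and by 0.25 in MEL-18 WT (edgeR adjusted p = 0.0115) against the vector, while GPR132 on the other side was not called in either.

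The Delta-like ligands were scarce. DLL1, on chromosome 6, had 7, 3 and 7 counts in MEL-18 T334A, 2, 4 and 4 in MEL-18 WT and 4, 1 and 7 with the vector, so the groups overlapped. The ratio of summed, depth-scaled counts to the vector was 1.34 in MEL-18 T334A (exact 95% binomial interval 0.605 to 3.09, counting error only) and 0.770 in MEL-18 WT (0.298 to 1.95). A difference in DLL1 was therefore not detectable at this depth, and reads of FAM120B, which overlaps DLL1 on the opposite strand, cannot be told apart where counting ignored strand. DLL4 stood at 1.18, 0.990 and 0.818 CPM in MEL-18 T334A, 0.755, 0.570 and 0.963 CPM in MEL-18 WT and 0.640, 0.595 and 0.542 CPM with the vector. It rose by 0.74 ± 0.24 in MEL-18 T334A (edgeR adjusted p = 0.0135), a call lost with DESeq2 (adjusted p = 0.0539) and without MEL-18 T334A replicate 1 (edgeR adjusted p = 0.0697). DLL3 had 8, 6 and 3 summed counts in MEL-18 T334A, MEL-18 WT and vector cells.

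**Figure D2:**
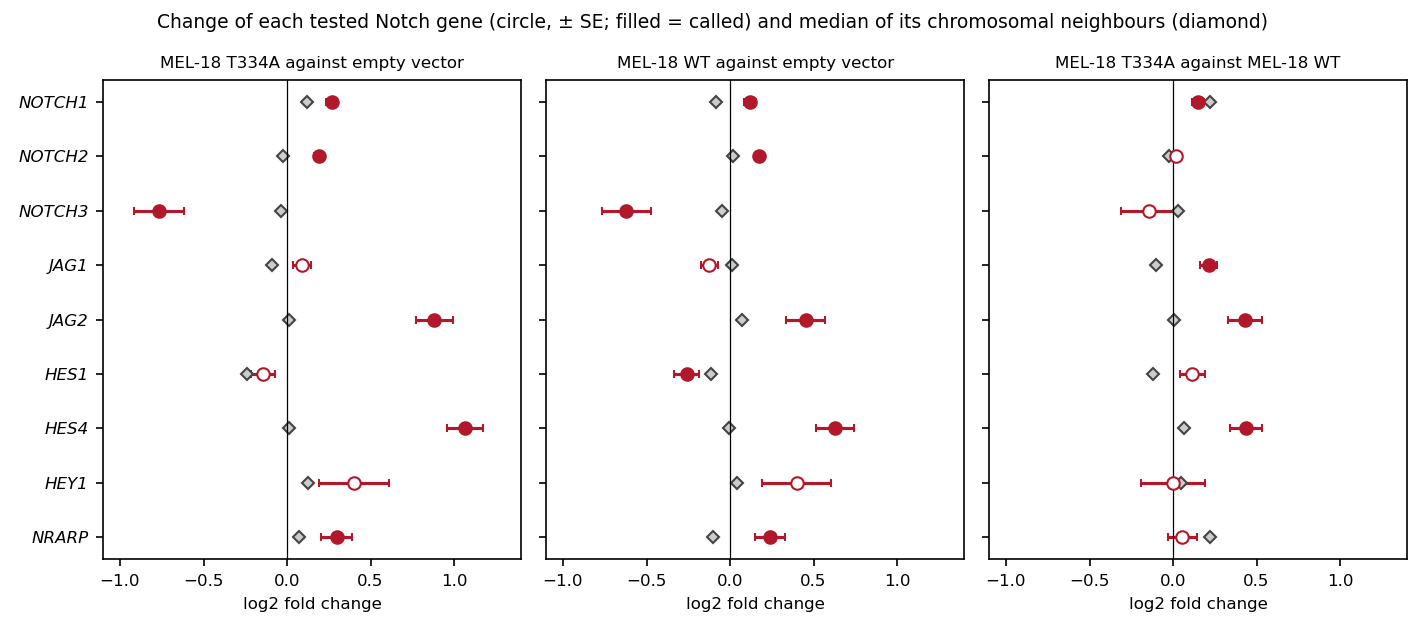
Log2 fold change (x axes) of the 9 tested Notch genes in the 3 comparisons, circles with SE bars, filled where called; grey diamonds are the median of the tested genes around each gene on its chromosome. HES4 and JAG2 stand clear of their neighbours' medians in each comparison, while NOTCH1 lies below its neighbours' median of 0.22 between the MEL-18 forms.

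HES4, on chromosome 1, a repressor gene that mice lack, had the largest change among the 9 tested members. It stood at 5.12, 5.94 and 5.72 CPM in MEL-18 T334A, at 4.31, 4.21 and 3.88 CPM in MEL-18 WT and at 2.93, 2.41 and 2.71 CPM with the vector. The groups did not overlap, and the order was MEL-18 T334A above MEL-18 WT above the vector. HES4 rose by 1.06 ± 0.11, or 2.09-fold, in MEL-18 T334A (edgeR adjusted p = 8.39e-09) and by 0.63 ± 0.11, or 1.54-fold, in MEL-18 WT (edgeR adjusted p = 1.2e-04). Between the MEL-18 forms the difference was 0.44 ± 0.10 (edgeR adjusted p = 6.89e-04). The medians of its 30 tested neighbours were 0.01, -0.01 and 0.07. The gene next to it on one side, PERM1, rose by 0.54 in MEL-18 T334A against the vector (edgeR adjusted p = 0.00501), and the gene on the other side, the interferon-induced ISG15, had 0.02 (edgeR adjusted p = 0.772). Between the MEL-18 forms PERM1 was higher by 0.45 in MEL-18 T334A (edgeR adjusted p = 0.0152), beside 0.44 for HES4. In MEL-18 WT against the vector PERM1 had 0.08 (edgeR adjusted p = 0.75).

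HES1, on chromosome 3, the best-studied target and the gene whose promoter shares the motif pair with HES4, was not called higher against the vector. Its values were 11.9, 13.0 and 10.1 CPM in MEL-18 T334A, 11.1, 10.4 and 10.9 CPM in MEL-18 WT and 12.8, 13.5 and 12.5 CPM with the vector. The MEL-18 WT libraries lay below those of the vector without overlap, and those of MEL-18 T334A overlapped both. HES1 fell by 0.26 ± 0.07 in MEL-18 WT (edgeR adjusted p = 0.00828). In MEL-18 T334A the change was -0.14 ± 0.07 (edgeR adjusted p = 0.109). The 40 tested genes around HES1 had medians of -0.24 in MEL-18 T334A, where 35 were below 0, and -0.11 in MEL-18 WT against the vector. With that shift taken out the HES1 value in MEL-18 T334A against the vector changed sign and was again not called (0.09, edgeR adjusted p = 0.334). HES1 was then no longer called in MEL-18 WT (-0.16, edgeR adjusted p = 0.143), and it was higher in MEL-18 T334A than in MEL-18 WT (0.25, edgeR adjusted p = 0.0119). The MEL-18 WT call was also lost without empty vector replicate 2 (edgeR adjusted p = 0.0524). A lower HES1 was called in MEL-18 T334A without its replicate 2 (-0.23, edgeR adjusted p = 0.0190), and a higher HES1 in MEL-18 T334A than in MEL-18 WT without MEL-18 T334A replicate 3 (0.21, edgeR adjusted p = 0.0143).

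HEY1, a repressor of the hairy-related YRPW family with roles in vessels and heart, was low. It had 1.15, 1.02 and 1.04 CPM in MEL-18 T334A, 1.17, 1.14 and 0.873 CPM in MEL-18 WT and 0.823, 0.684 and 0.924 CPM with the vector. The MEL-18 T334A libraries were above those of the vector, and MEL-18 WT overlapped both. Its log2 fold change against the vector was 0.40 ± 0.21 in both MEL-18 T334A (edgeR adjusted p = 0.119) and MEL-18 WT (edgeR adjusted p = 0.157), and 23 to 42 counts per library lay behind each value.

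NRARP lies on chromosome 9 at 137300482-137302251, near NOTCH1 at 136494433-136545786 (GRCh38). It had 5.83, 6.20 and 6.26 CPM in MEL-18 T334A, 5.82, 5.86 and 5.93 CPM in MEL-18 WT and 5.55, 4.67 and 4.68 CPM with the vector. The MEL-18 libraries were above all 3 vector libraries, with vector replicate 1 close to them. NRARP rose by 0.30 ± 0.09 in MEL-18 T334A (edgeR adjusted p = 0.00898), which was lost with the neighbours' shift taken out (0.18, edgeR adjusted p = 0.126). In MEL-18 WT it rose by 0.24 ± 0.09 (edgeR adjusted p = 0.0489), a call lost with DESeq2 (adjusted p = 0.148), with no filter on low counts (edgeR adjusted p = 0.0571), and on leaving out any library of MEL-18 WT or vector replicate 2 or 3 (edgeR adjusted p from 0.0879 to 0.180). The 30 tested neighbours of NRARP had medians of 0.07 in MEL-18 T334A and -0.10 in MEL-18 WT against the vector. With their shift taken out the NRARP call in MEL-18 WT was kept. The MEL-18 forms differed in NRARP by 0.06 ± 0.09 (edgeR adjusted p = 0.642).

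Further HES and HEY genes were measured beside the members. Of all 10 HES and HEY genes 8 were tested, and 5 rose and 0 fell in MEL-18 T334A against the vector, 4 rose and 1 fell in MEL-18 WT, and 3 rose and 0 fell in MEL-18 T334A against MEL-18 WT. Over all tested genes 23.4%, 14.4% and 21% were called higher in these comparisons. HES2 had 6.11, 6.11 and 6.06 CPM in MEL-18 T334A, 4.03, 4.34 and 3.91 CPM in MEL-18 WT and 3.17, 3.33 and 4.02 CPM with the vector, so MEL-18 T334A stood apart and the others overlapped. It rose by 0.80 ± 0.10 in MEL-18 T334A against the vector (edgeR adjusted p = 2.66e-07), by 0.57 ± 0.10 against MEL-18 WT (edgeR adjusted p = 2.51e-05), and had 0.23 ± 0.11 in MEL-18 WT (edgeR adjusted p = 0.118). A higher HES2 was called in MEL-18 WT without vector replicate 3 (0.34, edgeR adjusted p = 0.0364). HES6, which in the mouse is known to inhibit HES1 rather than to follow Notch, had 8.17 ± 0.62 CPM in MEL-18 T334A, 6.71 ± 0.65 CPM in MEL-18 WT and 5.40 ± 0.82 CPM with the vector (SD, n = 3 each). It rose by 0.59 ± 0.10 in MEL-18 T334A and by 0.31 ± 0.10 in MEL-18 WT, and by 0.28 ± 0.09 between them (edgeR adjusted p = 1.77e-05, 0.0208 and 0.0171). The HES6 call in MEL-18 WT against the vector was lost without vector replicate 3 (0.20, edgeR adjusted p = 0.162) and without MEL-18 WT replicate 1 or 2 (edgeR adjusted p = 0.0521 and 0.126). That between the MEL-18 forms was lost without MEL-18 WT replicate 3 or MEL-18 T334A replicate 2 (edgeR adjusted p = 0.103 and 0.109). HES7, known from the segmentation clock, and HEYL rose in both against the vector, HES7 by 0.36 ± 0.12 and 0.38 ± 0.12 and HEYL by 0.25 ± 0.10 and 0.34 ± 0.09 in MEL-18 T334A and MEL-18 WT. DESeq2 lost the HES7 calls in both (adjusted p = 0.0536 and 0.0628) and the HEYL call in MEL-18 T334A (adjusted p = 0.0786). Leaving out empty vector replicate 3 also ended both HES7 calls, and leaving out MEL-18 WT replicate 1 ended that in MEL-18 WT (edgeR adjusted p from 0.0718 to 0.0892). The HEYL call in MEL-18 T334A was lost without vector replicate 1 or 2 or MEL-18 T334A replicate 1 (edgeR adjusted p from 0.0767 to 0.133), and that in MEL-18 WT without MEL-18 WT replicate 2 (edgeR adjusted p = 0.107). HEY2, at 0.405 to 0.541 CPM on average in the 3 groups, was not called. HES3 and HES5 had at most 1 count in any group.

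Per kilobase of the principal transcript, the levels of the family spread over several orders. NOTCH2 came first at 26.1 ± 0.65 CPM per kilobase in MEL-18 T334A, 25.8 ± 0.22 in MEL-18 WT and 22.8 ± 0.55 with the vector (SD, n = 3 each). JAG1 followed at 21.0 ± 2.28, 18.1 ± 0.83 and 19.8 ± 1.17 CPM per kilobase in the same order of groups. This order of NOTCH2 and JAG1 depends on the length used: with merged exons, an alternative added after the data were seen, the transcript of NOTCH2 is 16074 rather than 11389 bases and the mean of JAG1 came first in MEL-18 T334A and vector cells. With merged exons the libraries of the pair overlapped in MEL-18 T334A (JAG1 down to 18.4, NOTCH2 up to 18.8 CPM per kilobase) and in MEL-18 WT, and those of JAG1 lay above those of NOTCH2 with the vector. HES1 and NOTCH1 changed places. NOTCH1 had 8.50 ± 0.08 and HES1 7.42 ± 0.92 CPM per kilobase in MEL-18 T334A, and NOTCH1 had 7.67 ± 0.26 and HES1 6.84 ± 0.23 in MEL-18 WT, against 7.06 ± 0.23 for NOTCH1 and 8.19 ± 0.32 for HES1 with the vector, with no overlap between the pair in any group. HES4 had 6.22 ± 0.47 CPM per kilobase in MEL-18 T334A, 4.60 ± 0.25 in MEL-18 WT and 2.98 ± 0.29 with the vector. Its libraries overlapped those of HES6 in every group, those of HES1 in MEL-18 T334A and those of NRARP with the vector. NRARP had 3.44 ± 0.13, 3.32 ± 0.03 and 2.81 ± 0.29 CPM per kilobase in MEL-18 T334A, MEL-18 WT and vector cells. Far below stood JAG2 at 1.03, 0.762 and 0.557, HEY1 at 0.467, 0.463 and 0.353, NOTCH3 at 0.164, 0.181 and 0.279, and DLL1 at 0.0524, 0.0299 and 0.0394 CPM per kilobase, as means in MEL-18 T334A, MEL-18 WT and vector cells.

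**Figure D3:**
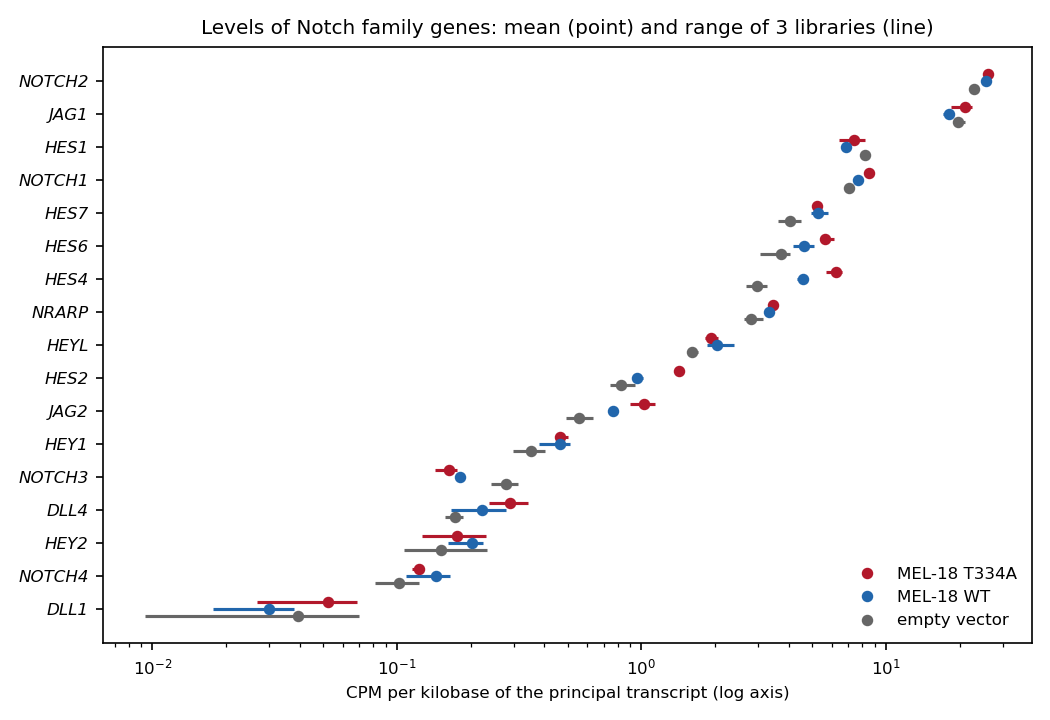
CPM per kilobase of the principal transcript (log axis) of the Notch receptors, ligands and HES/HEY genes with a count in every library, in MEL-18 T334A, MEL-18 WT and empty vector cells. Points are means and lines span the lowest and highest of 3 libraries; NOTCH2 and JAG1 are at the top, and the vector point of NOTCH3 lies to the right of those of both MEL-18 groups.

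Within each family the leading gene stayed in front, by means per kilobase of the principal transcript. The shares and sums given here depend on that length and were not computed with merged exons. With merged exons HES7 has 1674 rather than 678 bases, and 2.11 rather than 5.21 CPM per kilobase in MEL-18 T334A. The length of NOTCH2 is then 16074 rather than 11389 bases. NOTCH2 made up 74.8 ± 0.49% of the per-kilobase receptor RNA in MEL-18 T334A, 76.3 ± 0.58% in MEL-18 WT and 75.4 ± 0.62% with the vector, while NOTCH3 made up 0.469 ± 0.044%, 0.536 ± 0.007% and 0.923 ± 0.134% (SD, n = 3 each). JAG1 made up 93.7 ± 0.09% of ligand RNA in MEL-18 T334A, 94.6 ± 0.37% in MEL-18 WT and 96.2 ± 0.34% with the vector, and JAG2 4.57 ± 0.21%, 3.98 ± 0.23% and 2.71 ± 0.23%. Among HES and HEY genes, HES1 made up 26.0 ± 2.05% in MEL-18 T334A, 27.4 ± 1.66% in MEL-18 WT and 37.4 ± 1.54% with the vector, and HES4 21.9 ± 1.60%, 18.4 ± 0.23% and 13.6 ± 1.33%. The summed level of all 10 HES and HEY genes was 28.5 ± 1.45 CPM per kilobase in MEL-18 T334A, 25.0 ± 1.08 in MEL-18 WT and 21.9 ± 0.99 with the vector, and no library of a group overlapped another group. Summed receptors had 34.9 ± 0.66, 33.8 ± 0.37 and 30.3 ± 0.61 CPM per kilobase in the same order, the MEL-18 groups above the vector without overlap. Summed ligands had 22.4 ± 2.41, 19.2 ± 0.89 and 20.6 ± 1.23 CPM per kilobase, and the libraries of MEL-18 T334A and of MEL-18 WT both overlapped those of the vector.

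Of 56 other pathway genes on the list 51 were tested, and 9 rose and 15 fell in MEL-18 T334A against the vector, 9 rose and 8 fell in MEL-18 WT, and 12 rose and 9 fell in MEL-18 T334A against MEL-18 WT, with medians of -0.0069, -0.0028 and -0.0023. Thus 24 (47.1%), 17 (33.3%) and 21 (41.2%) of the 51 were called in either direction, near the 45.9%, 28.8% and 40.9% of all tested genes. The exception in size was TLE2, a Groucho-type corepressor recruited by HES proteins. It had 6.95, 8.03 and 5.75 CPM in MEL-18 T334A, 5.59, 4.32 and 5.15 CPM in MEL-18 WT and 2.07, 2.14 and 2.36 CPM with the vector, with no overlap between the groups. TLE2 rose by 1.66 ± 0.13, or 3.15-fold, in MEL-18 T334A (edgeR adjusted p = 8.93e-11) and by 1.19 ± 0.14, or 2.29-fold, in MEL-18 WT (edgeR adjusted p = 2.06e-07), and MEL-18 T334A exceeded MEL-18 WT by 0.46 ± 0.11 (edgeR adjusted p = 0.00119). Among the other corepressors, TLE3 rose by 0.18 ± 0.04 in MEL-18 T334A and by 0.17 ± 0.04 in MEL-18 WT against the vector, and SPEN fell by 0.13 ± 0.03 in MEL-18 T334A.

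On the ligand side, the non-canonical ligand DLK2 rose by 0.63 ± 0.10 in MEL-18 T334A and by 0.67 ± 0.10 in MEL-18 WT (edgeR adjusted p = 7.49e-06 and 6.4e-06). Of 4 ligand ubiquitination genes 2 rose and 1 fell in MEL-18 T334A against the vector. Of all tested genes 23.4% were higher and 22.5% lower there. In MEL-18 WT against the vector 0 of the 4 were called, where 28.8% of all tested genes were. The gene that fell was MIB1, by 0.08 ± 0.03 (edgeR adjusted p = 0.0261). That call was lost with library totals and with no filter (edgeR adjusted p = 0.246 and 0.0530). It was also lost without vector replicate 1 or 3 or MEL-18 T334A replicate 2 or 3 (edgeR adjusted p from 0.0625 to 0.132). In MEL-18 WT a lower MIB1 was called with the neighbours' shift taken out (-0.21, edgeR adjusted p = 3.65e-06). NEURL1B, an E3 ligase of the Neuralized type that acts on ligands, had 46.3, 44.9 and 41.7 CPM in MEL-18 T334A, 34.3, 35.6 and 34.2 CPM in MEL-18 WT and 32.5, 33.0 and 33.6 CPM with the vector. The MEL-18 T334A libraries lay well above the rest, and those of MEL-18 WT just above those of the vector. NEURL1B rose by 0.42 ± 0.04 in MEL-18 T334A against the vector (edgeR adjusted p = 5.31e-09) and by 0.35 ± 0.04 against MEL-18 WT (edgeR adjusted p = 1.42e-07), and had 0.07 ± 0.04 in MEL-18 WT against the vector (edgeR adjusted p = 0.234). Its relative NEURL1, at 0.703 ± 0.136 CPM in MEL-18 T334A and 0.398 ± 0.042 CPM with the vector (SD, n = 3 each), rose by 0.80 ± 0.27 (edgeR adjusted p = 0.0172), which was lost with DESeq2 (adjusted p = 0.0742), with the neighbours' shift taken out (edgeR adjusted p = 0.0812) and without vector or MEL-18 T334A replicate 1 (edgeR adjusted p = 0.0583 and 0.0803).

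Of 9 receptor cleavage genes 1 rose and 4 fell in MEL-18 T334A against the vector, where 23.4% of all tested genes were higher and 22.5% lower, and 2 rose and 3 fell in MEL-18 WT, where 14.4% were higher and 14.4% lower. PSEN2, a catalytic subunit of gamma-secretase, rose by 0.40 ± 0.06 and 0.20 ± 0.06, and ADAM17, a sheddase, fell by 0.18 ± 0.04 and 0.19 ± 0.04, in MEL-18 T334A and MEL-18 WT. The PSEN2 call in MEL-18 WT was lost without vector replicate 1 or MEL-18 WT replicate 1 (edgeR adjusted p = 0.0656 and 0.0534). The neighbours of ADAM17 had medians of -0.11 and -0.14, and with their shift taken out it was not called in MEL-18 T334A (-0.08, edgeR adjusted p = 0.117) or MEL-18 WT (-0.05, edgeR adjusted p = 0.394). The gamma-secretase subunits APH1A and NCSTN fell by 0.22 ± 0.03 and 0.21 ± 0.03 in MEL-18 WT, beside neighbour medians of -0.19 and -0.21, and neither was called with that shift taken out (edgeR adjusted p = 0.322 and 0.788). The glycosyltransferases POGLUT1 and POFUT1, which modify receptor EGF repeats, fell by 0.22 ± 0.05 and 0.17 ± 0.03 in MEL-18 T334A, with the neighbours of POGLUT1 at a median of -0.21 and those of POFUT1 at -0.02. The POGLUT1 call was lost with that shift taken out (edgeR adjusted p = 0.911). Of 6 tested trafficking and turnover genes, 1 rose and 2 fell in each MEL-18 group against the vector. Over all tested genes 23.4% and 14.4% were higher and 22.5% and 14.4% lower. NUMBL, related to the receptor inhibitor NUMB, rose by 0.35 ± 0.05 in MEL-18 T334A and by 0.26 ± 0.05 in MEL-18 WT. DTX3L fell by 0.23 ± 0.04 in MEL-18 T334A and 0.15 ± 0.04 in MEL-18 WT. FBXW7 fell by 0.21 ± 0.05 in MEL-18 T334A, and DTX2 by 0.30 ± 0.05 in MEL-18 WT. The DTX3L and FBXW7 calls were lost with their neighbours' shift taken out (edgeR adjusted p from 0.211 to 0.989).

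Of the 8 genes of the nuclear complex, 1 rose and 4 fell in MEL-18 T334A against the vector and likewise against MEL-18 WT, where 22.5% and 20% of all tested genes were lower. In MEL-18 WT against the vector 0 rose and 1 fell, where 14.4% were lower. That gene was the acetyltransferase KAT2B, lower by 0.11 ± 0.03, a call lost when scaling by library totals (edgeR adjusted p = 0.0755), in DESeq2 (adjusted p = 0.0508) and without vector replicate 1 or 3 or MEL-18 WT replicate 1 or 2 (edgeR adjusted p from 0.0537 to 0.192). RBPJ fell by 0.12 ± 0.03, the coactivator MAML1 by 0.14 ± 0.03, SNW1 by 0.14 ± 0.03 and the acetyltransferase CREBBP by 0.15 ± 0.03 against the vector, and MAML2 rose by 0.15 ± 0.05, a call lost without vector replicate 2 (edgeR adjusted p = 0.0535). Their neighbours' medians lay between -0.05 and 0.03. Of 6 reported targets outside the HES and HEY family 1 rose and 1 fell in MEL-18 T334A against the vector. Of all tested genes 23.4% were higher and 22.5% lower in that comparison. The cell-cycle inhibitor CDKN1A rose by 0.23 ± 0.06, beside neighbours at 0.18, and had 0.07 with their shift taken out (edgeR adjusted p = 0.341). SNAI2, a mesenchymal transcription factor, had -0.21 ± 0.08, a call lost with library totals (edgeR adjusted p = 0.0902), with DESeq2 (adjusted p = 0.0894), and without vector replicate 1 (-0.11, edgeR adjusted p = 0.309) or MEL-18 T334A replicate 1 or 2 (edgeR adjusted p = 0.123 and 0.0675). In MEL-18 WT, 3 of the 6 rose against the vector, where 14.4% of all tested genes were higher. These were CDKN1A by 0.30 ± 0.05, MYC by 0.13 ± 0.03 and CCND1 by 0.08 ± 0.03. The MYC call was lost without MEL-18 WT replicate 1 (edgeR adjusted p = 0.0596), and that of CCND1, beside neighbours at 0.13, without vector replicate 1 or 3 or MEL-18 WT replicate 2 or 3 (edgeR adjusted p from 0.0539 to 0.151).

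**Figure D4:**
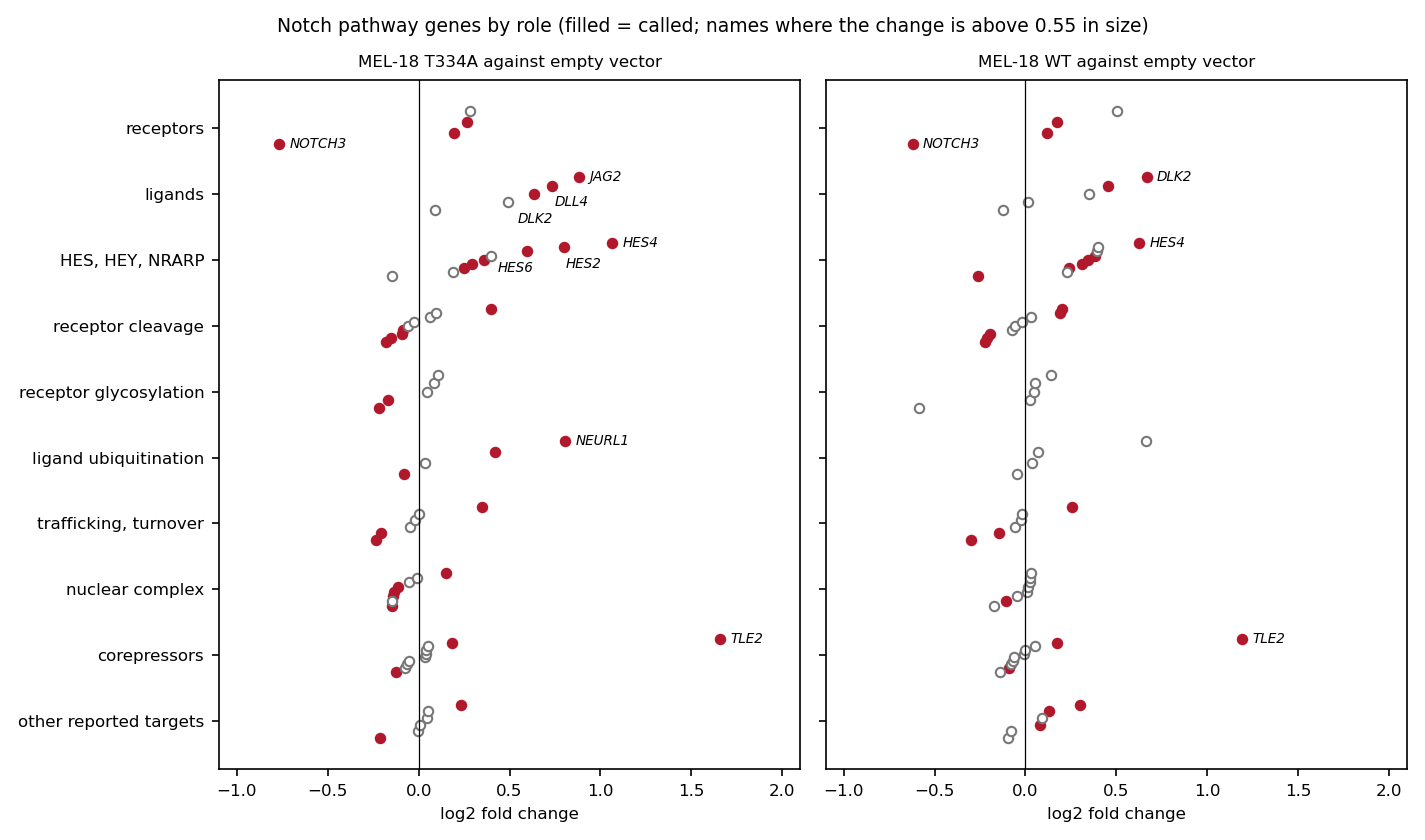
Log2 fold change against the empty vector (x axes) of tested Notch pathway genes, arranged by role, in MEL-18 T334A (left) and MEL-18 WT (right). Each point is a gene, filled where called and named where called and above 0.55 in size; TLE2, HES4 and NOTCH3 are the farthest called points in their roles in both panels.

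The chromosomal surroundings differed between members. Around NOTCH1 34 of 40 neighbours were above 0 in MEL-18 T334A against the vector and 8 of 40 in MEL-18 WT. Around NRARP, near it on chromosome 9, 25 of 30 were above 0 in MEL-18 T334A and 7 of 30 in MEL-18 WT against the vector. Between the MEL-18 forms 29 of these 30 were above 0. Whether the rises of NOTCH1 and NRARP are independent was not tested. EGFL7, the gene beside NOTCH1, was higher in MEL-18 T334A by 0.44 against the vector (edgeR adjusted p = 2.66e-08) and by 0.53 against MEL-18 WT (edgeR adjusted p = 1.63e-09). OPA1, beside HES1, fell by 0.24 in MEL-18 T334A and by 0.14 in MEL-18 WT (edgeR adjusted p = 4.98e-07 and 9.71e-04). Around JAG2 15 of 27 and around HES4 16 of 30 neighbours were above 0 in MEL-18 T334A against the vector, with no common direction.

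**Figure D5:**
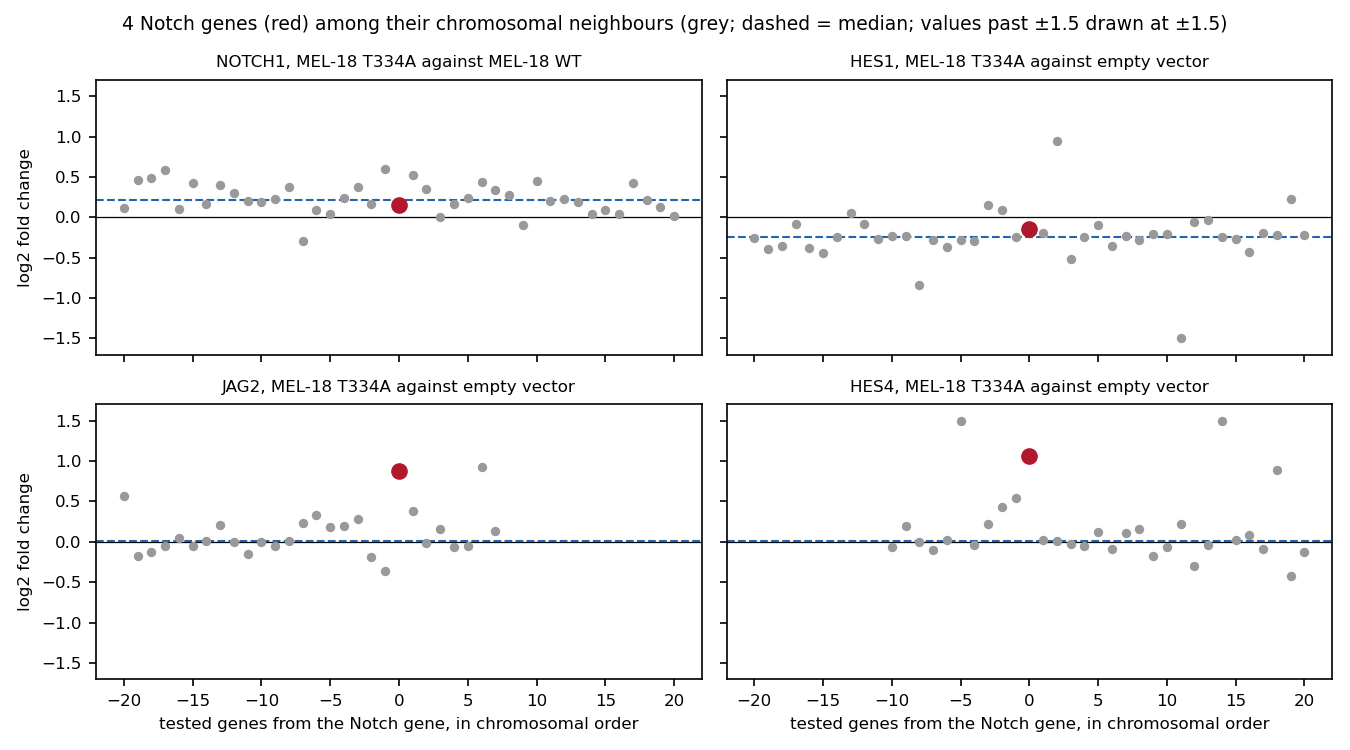
Log2 fold change (y axes) of NOTCH1, HES1, JAG2 and HES4 in red and of the tested genes around them in grey, by place in chromosomal order (x axes), with the median of the neighbours dashed. The neighbours of NOTCH1 have a median of 0.22 between MEL-18 T334A and MEL-18 WT and those of HES1 a median of -0.24 in MEL-18 T334A against the vector, while those of JAG2 and HES4 are centred near 0.01.

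For the 3 members with the widest range of group means, the genes with the most similar profile over the 9 libraries were sought by the root mean square difference of centred log2 CPM. The candidates were 11099 tested genes that averaged 2 CPM or more. Uncharacterised, LINC, antisense and small RNA names, and KIAA and FAM names, had been left out. Nearest to HES4 were MAPK11, a p38 kinase gene, at 0.0599, CTXN1 at 0.0735 and PLBD1 at 0.0852. MAPK11 averaged 13.0 CPM in MEL-18 T334A, 9.40 CPM in MEL-18 WT and 5.93 CPM with the vector. Nearest to JAG2 were SLC37A2 at 0.0660, SRCIN1 at 0.0820 and HAS2, a hyaluronan synthase gene, at 0.0879. HAS2 averaged 7.26 CPM in MEL-18 T334A, 5.46 CPM in MEL-18 WT and 3.82 CPM with the vector. Nearest to NOTCH3 were TIMP3, an inhibitor of metalloproteinases, at 0.121, NR4A2 at 0.135 and OTUD1 at 0.139, and TIMP3 averaged 71.1, 83.8 and 117 CPM in MEL-18 T334A, MEL-18 WT and vector cells.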

How the data were processed

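The authors deposited whole-number read counts per gene, for which the submitters' processing notes name the hg19 build, STAR 2.5.3a, CASAVA 1.8, and featureCounts of Subread 1.5.3, from polyA-selected libraries made with a stranded kit, per the labels' protocols. No source used here gives the annotation, the strand setting or the treatment of multiply mapped reads, so overlapping, antisense and near-identical genes are uncertain. Here, edgeR 4.0.16 (R 4.3.3) kept 14738 of 26364 genes by filterByExpr (at least 99.95% of counts), scaled by TMM (factors 0.979 to 1.02) and fitted all 9 libraries with 1 mean per group. The quasi-likelihood F test was two-sided, and the SE of a log2 fold change was its size divided by the root of F. The common biological coefficient of variation was 2.57%. The depth, 31643722 counts or more per library, limits genes with few counts; intervals cover counting error only. Fits were tested on simulated counts. Gene order came from RefSeq GRCh38.p14 (20 tested genes on each side, 14423 tested genes placed) and transcript lengths from GENCODE 29. The members and lists were chosen with earlier results of these data known. All members, family genes and, per role and comparison, up to 3 called genes with the largest change are named, with PCGF2, BMI1, adjacent genes and the 3 nearest profiles of 3 members; RBPJ, MAML1 against the vector and ADAM17 in MEL-18 WT were added after their values were seen. Alternatives were DESeq2 1.42.0, RLE factors, library totals, 2 filters, a replicate term, a minimum change of 1.5-fold, the neighbours' shift as an offset, 2 groups alone and leaving out each library.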

Additional observations from a re-analysis of the deposited data

How the results depend on the processing

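With a minimum change of 1.5-fold, 378, 191 and 187 of all genes were called in MEL-18 T334A against the vector, MEL-18 WT against the vector and MEL-18 T334A against MEL-18 WT. Of the Notch genes this test left HES4 higher in MEL-18 T334A against the vector (1 higher, 0 lower), and 0 higher and 0 lower in the other comparisons. With the neighbours' shift taken out, 1 member rather than 2 was lower in MEL-18 WT against the vector, NOTCH1 had -0.0633 between the MEL-18 forms (edgeR adjusted p = 0.164) and CCND1 had -0.0038 in MEL-18 WT against the vector (edgeR adjusted p = 0.946). Leaving out 1 library at a time gave 1 to 2 members lower in MEL-18 T334A against the vector, and 3 to 5 higher and 1 to 3 lower in MEL-18 WT against the vector. Over all alternatives, 359 log2 fold changes of single members kept their sign and side of the threshold, 29 lost a call, 10 gained a call and 1 called value changed sign. A further 6 that were not called changed sign and stayed uncalled, 4 of them HEY1 between the MEL-18 forms, with HES1 in MEL-18 T334A against the vector (0.09) and NRARP between the MEL-18 forms (-0.17) under the neighbours' shift. Same-numbered libraries of different groups did not deviate together (correlations of deviations from -0.0791 to 0.0137). With 3 libraries per group this cannot exclude a shared culture day or preparation, which the labels do not state. A replicate block gave 6496, 3963 and 5757 calls over all genes, and 5 higher and 1 lower, 4 higher and 2 lower, and 4 higher and 0 lower members in the 3 comparisons. Under the block NRARP in MEL-18 WT and HEYL and SNAI2 in MEL-18 T334A against the vector had edgeR adjusted p of 0.0671, 0.0543 and 0.0543. Library totals moved the median of all genes by 0.04 or less. Low counts limit DLL1, DLL3, HES3, HES5, HEY1, HEY2 and NOTCH4.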
